A study of Mus musculus with 24 samples.

Results

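The genes described here encode 3 myomesins (Myom1, Myom2 and Myom3) and 3 myosin-binding proteins (Mybpc1, Mybpc2 and Mybph). They were taken by gene name from the deposited table, where each name matched 1 row, and are 6 of its 28109 genes. Their mRNA levels were measured by RNA-seq in 24 libraries from C2C12 cells, a mouse myoblast line of the C3H strain, and from primary myoblasts (PMs) of the strain given as C57/B6, isolated from mice of 3 to 4 weeks of age. Each cell type was transfected with siControl, an siRNA against luciferase, or with siTead1/4, siRNA pools against Tead1 and Tead4, which encode DNA-binding factors of the TEA domain family. RNA was taken 24 hours after transfection from undifferentiated cells (day 0) and after 3 and 6 days in medium with 2% horse serum, which gives 12 groups of 2 biological replicates. All cells, siControl included, were transfected. The C2C12 cells are 1 line, and how many mice stand behind each PM replicate is not given in the sources used here.

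In striated muscle the thick filaments of each sarcomere, bundles of myosin, are cross-linked at their middle by the M-band, of which the myomesins are the main cross-linkers. Myom1 encodes myomesin itself, Myom2 the M-protein of fast fibres, and Myom3 a myomesin linked to slow and intermediate fibres. Myosin-binding protein C forms stripes on the thick filament on both sides of the M-band and restrains the myosin heads, with Mybpc1 as the slow and Mybpc2 as the fast skeletal form, and Mybph encodes the shorter myosin-binding protein H. Genes of the contractile apparatus are off or low in dividing myoblasts and are switched on as the cells leave the cell cycle and fuse.

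The genes lie on separate chromosomes of the mm9 build used for the deposited table. Myom1 (ENSMUSG00000024049) is at chr17:71368861-71476196 on the plus strand, Myom2 (ENSMUSG00000031461) at chr8:15057653-15133541 on the plus strand and Myom3 (ENSMUSG00000037139) at chr4:135315630-135371479 on the plus strand. Mybpc1 (ENSMUSG00000020061) is at chr10:87981024-88067897 on the minus strand, Mybpc2 (ENSMUSG00000038670) at chr7:51757088-51780039 on the minus strand and Mybph (ENSMUSG00000042451) at chr1:136090025-136097808 on the plus strand. The library kit does not keep the strand, and Mybph shares 661 exonic bases with Adora1 on the opposite strand. The reads assigned to Adora1 in all libraries were 2.02% of those of Mybph, and the part of the shared bases in either count was not tested.

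Promoter windows of 5 of the 6 genes were in the RefSeq table of build GRCm38.p6 (Myom2 was not in it). The 250 bases before the start site are shown 5′ to 3′ for the 3 myosin-binding genes. These had the largest fitted silencing effects of the 6 genes in C2C12 cells at days 3 and 6, but not in every comparison in PMs. Capitals mark every match, on either strand, to CATTCC (the core of the MCAT element that Tead factors bind), CANNTG and its form CAGCTG (the E-box that Myod1 and Myog bind, so that each CAGCTG is also a CANNTG), and the MEF2 and TATA motifs. The windows are chr1:134193198-134193447 on the plus strand for Mybph, chr10:88605153-88605402 on the minus strand for Mybpc1 and chr7:44524670-44524919 on the minus strand for Mybpc2. Each sequence had 1 exact match in the mm9 reference (NCBIM37), lying directly upstream of the gene in the deposited table.
Mybph: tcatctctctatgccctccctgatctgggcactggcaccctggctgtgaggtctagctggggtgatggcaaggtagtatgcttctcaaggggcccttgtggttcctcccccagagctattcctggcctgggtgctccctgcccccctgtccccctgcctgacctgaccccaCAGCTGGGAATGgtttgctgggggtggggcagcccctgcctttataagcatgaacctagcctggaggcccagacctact
Mybpc1: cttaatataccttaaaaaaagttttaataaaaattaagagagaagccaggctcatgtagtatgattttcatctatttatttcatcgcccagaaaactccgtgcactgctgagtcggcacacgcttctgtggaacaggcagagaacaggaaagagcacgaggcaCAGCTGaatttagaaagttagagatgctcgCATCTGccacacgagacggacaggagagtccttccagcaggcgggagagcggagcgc
Mybpc2: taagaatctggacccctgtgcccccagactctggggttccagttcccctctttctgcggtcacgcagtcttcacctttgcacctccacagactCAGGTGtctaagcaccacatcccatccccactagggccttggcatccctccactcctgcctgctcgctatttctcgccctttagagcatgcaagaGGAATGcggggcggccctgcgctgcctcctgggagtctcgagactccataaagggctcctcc
CATTCC, written as GGAATG on the printed strand, was found in the windows of Mybph and Mybpc2 and in none of those of Mybpc1, Myom1 and Myom3. It is in 12.6% of all 32536 windows of this length. CAGCTG was found in Mybph and Mybpc1 and is in 13.1% of all windows. CANNTG was found in all 5 windows and in 66.2% of all. In Mybph the CAGCTG ends at position -74 and the GGAATG begins at position -73, counted back from the start site. This direct contact of the letters, noticed in the sequence and counted afterwards, occurs in 5 of the 32536 windows (0.0154%). CATTCC and CAGCTG at any spacing are both in 568 of the windows (1.75%). A MEF2 match was found in Myom3 alone of these genes (2.89% of all windows) and a TATA match in none of them (11.2% of all). These letter matches are a description and say nothing of binding.

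The libraries held between 25453830 and 52784510 reads on genes in C2C12 cells and between 32571583 and 51110723 in PMs. Levels are given as CPM, read counts divided by the library size after TMM scaling over all libraries. In siTead1/4 cells Tead1 mRNA was between 18.2% and 69.5% of siControl and Tead4 between 16.8% and 40.99%, over both cell types and all days. By the test used throughout (edgeR quasi-likelihood, Benjamini-Hochberg adjusted p under 0.05 and a log2 fold change beyond 1 in size, hereafter "called"), Tead4 was lower in 5 of 6 comparisons and Tead1 in 2 of 6. Both Tead1 calls were in PMs, at days 0 and 3, and Tead1 was not called in C2C12 cells on any day. In C2C12 cells at day 6 neither target was called (adjusted p = 0.945 for Tead1 and 0.318 for Tead4, edgeR). Summed over 6 myogenic genes (Myod1, Myf5, Myog, Mef2c, Cdh15 and Des), the level was between 614 and 6981 CPM in C2C12 libraries and between 3996 and 10877 CPM in PMs. Lists of 6 markers each for other cell types summed to between 14.4 and 256 CPM (fibroblast), 0.183 and 16.2 CPM (endothelial), 1.11 and 6.29 CPM (macrophage) and 1.64 and 20.3 CPM (Schwann cell) over all libraries. Of the macrophage markers, Ptprc and Emr1 had at most 3 counts in every library. The common biological coefficient of variation between replicates was 0.242 in the C2C12 fit and 0.15 in the PM fit.

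All 6 genes rose when siControl cells differentiated, in both cell types (edgeR). In C2C12 cells 6 of 6 were called higher at day 3 and at day 6 than at day 0, beside 16% and 17.1% of all 15303 tested genes. In PMs 6 of 6 were also called higher at both days, beside 17.5% and 20.2% of all 16144 tested genes. The median log2 fold change of the 6 genes from day 0 to day 3 was 7.72 in C2C12 cells and 2.90 in PMs, where that of all tested genes was -0.01 and 0.01. In C2C12 cells the size of the rise depended on the day 0 library, where replicate 1 of siControl was above replicate 2 for all 6 genes. Without replicate 1 the day 3 log2 fold changes lay between 8.13 and 10.0, and without replicate 2 between 5.86 and 8.43, with all 6 called in both. The plot of the level of each gene in every library shows these values side by side.

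**Figure D1:**
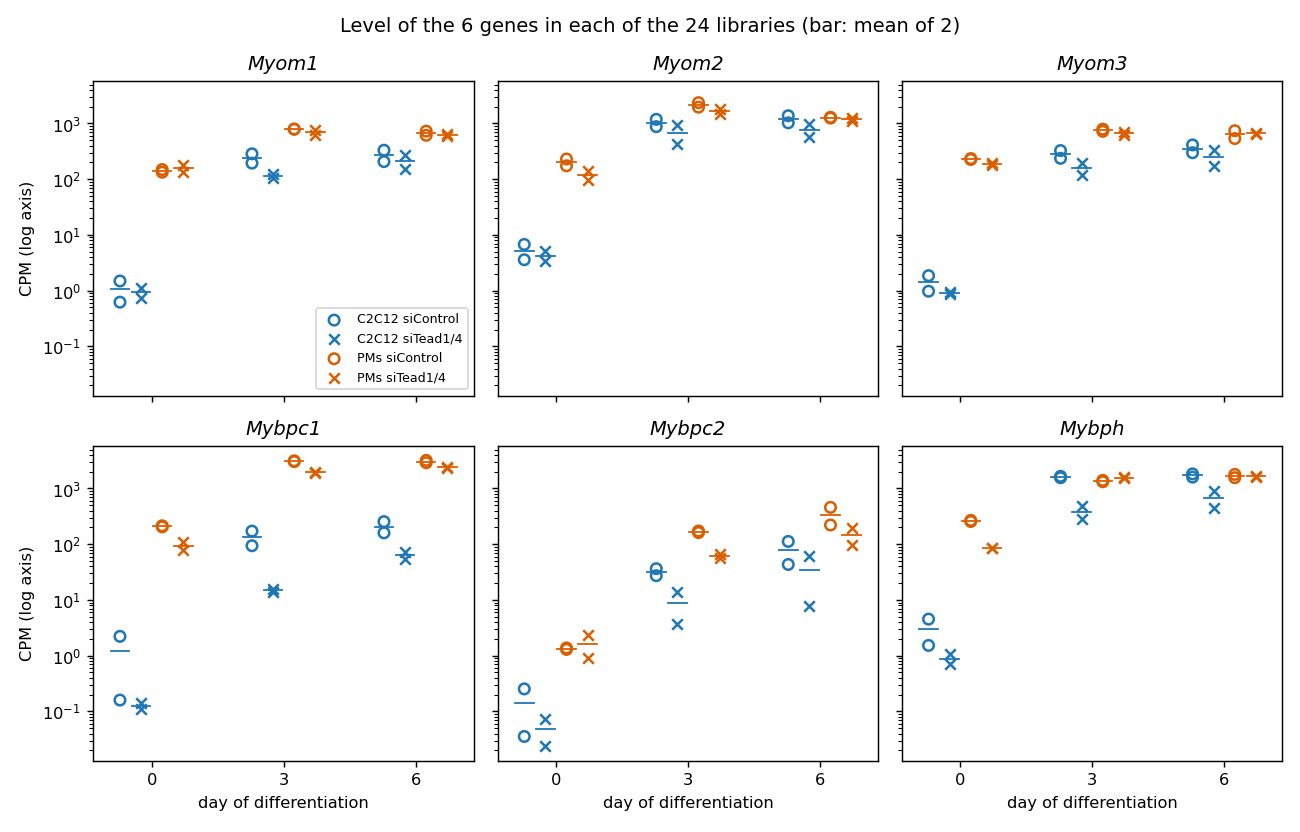
Level of each gene in CPM (log axis) against the day of differentiation, with 1 point per library, blue for C2C12 cells and orange for PMs, circles for siControl and crosses for siTead1/4, and a short bar at the mean of 2 libraries. At day 0 the C2C12 libraries lie below the PM libraries for every gene, and the crosses of Mybpc1 and Mybph in C2C12 cells lie below the circles on all 3 days.

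Among the myomesins, Myom2 had the highest level per length in siControl cells of either type after differentiation. Its level in siControl C2C12 cells was 6.76 and 3.59 CPM at day 0, 878 and 1186 CPM at day 3 and 1026 and 1376 CPM at day 6. In siControl PMs it was 230.2 and 174 CPM at day 0, 2360.2 and 1961 CPM at day 3 and 1289 and 1249 CPM at day 6. Myom2 thus rose 195-fold in C2C12 cells (log2 fold change 7.61 ± 0.57 SE, adjusted p = 9.46e-06, edgeR) and 10.3-fold in PMs (3.36 ± 0.21, adjusted p = 5.93e-07) to day 3. In PMs both day 6 libraries lay below both day 3 libraries, with a log2 fold change of -0.78 ± 0.19 (adjusted p = 0.042, edgeR) that did not pass the fold threshold.

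Myom1, the myomesin found in all striated muscle, was at 1.49 and 0.622 CPM in siControl C2C12 cells at day 0, at 194 and 286 CPM at day 3 and at 207 and 331 CPM at day 6. PMs held 149 and 133 CPM at day 0, 793 and 788 CPM at day 3 and 613 and 729 CPM at day 6. For Myom3 the C2C12 values were 1.86 and 0.977 CPM, then 237 and 326 CPM, then 298 and 412 CPM, and the PM values 226 and 234 CPM, then 791 and 723 CPM, then 536 and 741 CPM. These 2 genes moved much alike, and their ratio per length (Myom3 over Myom1) lay between 0.844 and 1.78 in all 24 libraries. The day 3 change was 227-fold for Myom1 and 197-fold for Myom3 in C2C12 cells (7.83 ± 0.55 and 7.62 ± 0.52 on the log2 scale). In PMs it was 5.39-fold and 3.16-fold (2.43 ± 0.17 and 1.66 ± 0.15), and Myom3 had the smallest rise of the 6 genes there.

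Mybpc1, the slow form of myosin-binding protein C, had the largest fitted difference between the cell types on each day. In siControl C2C12 cells it was at 2.22 and 0.160 CPM before differentiation, at 93.9 and 172 CPM on day 3 and at 160.0 and 254 CPM on day 6. PMs reached 214 and 205 CPM at day 0, 3032 and 3136 CPM at day 3 and 3196 and 2898 CPM at day 6. The undifferentiated PMs thus lay within the range of the differentiated C2C12 libraries. From day 0 to day 3 the gene rose 115-fold in C2C12 cells (6.85 ± 0.87, adjusted p = 0.000222, edgeR) and 14.2-fold in PMs (3.83 ± 0.15, adjusted p = 6.70e-08).

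Mybpc2, the fast form, was the lowest of the 6 genes per length in every group. Its counts in siControl C2C12 cells at day 0 were only 9 and 2, and the levels were 0.253 and 0.0355 CPM, followed by 27.2 and 36.4 CPM at day 3 and 43.3 and 112 CPM at day 6. PMs had 1.38 and 1.30 CPM at day 0, 162 and 173 CPM at day 3 and 458 and 221 CPM at day 6. It had the largest rise of the 6 in PMs, 120-fold to day 3 (6.90 ± 0.54, adjusted p = 2.46e-06, edgeR) and 241-fold to day 6 (7.91 ± 0.56). In C2C12 cells the summed counts rose 269-fold to day 3, with an exact 95% interval of 150 to 539 that covers counting error only. The change from day 3 to day 6 in PMs (1.01 ± 0.39, adjusted p = 0.165) was not past the threshold, and the 2 day 6 libraries stood apart.

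Mybph was the most abundant of the 6 per length in all 6 siControl groups. It was at 4.53 and 1.53 CPM in siControl C2C12 cells at day 0, 1654 and 1558 CPM at day 3 and 1599 and 1826 CPM at day 6. PMs held 256 and 268 CPM at day 0, 1401 and 1321 CPM at day 3 and 1561 and 1790.2 CPM at day 6. The differentiated cells of both types therefore had similar levels, although day 0 differed widely. In C2C12 cells the gene rose 522-fold to day 3 (9.03 ± 0.66, adjusted p = 8.28e-06, edgeR), the largest such fitted change of the 6, and in PMs 5.00-fold (2.32 ± 0.11, adjusted p = 1.66e-07).

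Between day 3 and day 6 of siControl cells none of the 6 genes was called in either cell type (edgeR). In C2C12 cells 0% of all tested genes were called and 0 of the 6 had an unadjusted p under 0.05. In PMs 2.8% of all tested genes were called, and 3 of the 6 (Myom2, Mybpc2 and Mybph) had an unadjusted p under 0.05. Of all 16144 tested genes in PMs, 1880 had such a p and were higher at day 6, and 1667 were lower. DESeq2 also called 0 of the 6 in either cell type, beside 0.068% of all genes in C2C12 cells and 1.98% in PMs.

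The siControl PMs were compared with siControl C2C12 cells at each day in a fit of all 24 libraries. Cell type, mouse strain and culture medium differ together and cannot be told apart here. At day 0, 6 of 6 genes were called higher in PMs beside 16.3% of all 16926 tested genes. The log2 differences were 7.57 ± 0.68 for Mybpc1, 7.38 ± 0.42 for Myom3, 7.12 ± 0.43 for Myom1, 6.47 ± 0.46 for Mybph and 5.30 ± 0.43 for Myom2. Without replicate 1 of siControl C2C12 cells these 5 were 10.3, 7.85, 7.80, 7.40 and 5.79, and without replicate 2 they were 6.52, 6.92, 6.53, 5.82 and 4.87, so that Myom3 and Myom1 then exceeded Mybpc1, with all 5 called in both cases. That of Mybpc2 was 3.41 ± 1.31 with an adjusted p of 0.0479, and it was not called when any 1 of the 4 libraries was left out (adjusted p between 0.0717 and 0.283).

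The fitted differences were smaller at the later days, a change that was not tested itself. At day 3, 5 of 6 genes were called higher in PMs (17.2% of all genes), led by Mybpc1 at 4.54 ± 0.57 and followed by Mybpc2 at 2.39 ± 0.76, Myom1 at 1.72 ± 0.33, Myom3 at 1.43 ± 0.31 and Myom2 at 1.07 ± 0.36. Mybph differed by -0.24 ± 0.36 (adjusted p = 0.615, edgeR). At day 6, 3 of 6 were called (15.7% of all genes), namely Mybpc1 at 3.88 ± 0.55, Mybpc2 at 2.13 ± 0.75 and Myom1 at 1.32 ± 0.32. Myom3 differed by 0.85 ± 0.31, under the fold threshold, Myom2 by 0.08 ± 0.35 and Mybph by -0.03 ± 0.36. When 1 of the 4 libraries was left out, 3 or 4 of the 6 were called at day 3 and 1 to 3 at day 6, with the lowest count in both cases without replicate 1 of siControl C2C12 cells.

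The genes therefore made up different shares of their summed level per length in the 2 cell types. Per length, siControl C2C12 cells at day 3 held 879 ± 37.0 CPM per kb of Mybph (SD, n = 2), 195 ± 41.2 of Myom2, 50.5 ± 11.4 of Myom3, 42.5 ± 11.4 of Myom1, 30.6 ± 12.7 of Mybpc1 and 8.81 ± 1.80 of Mybpc2. The libraries of Myom3 (42.5 and 58.5 CPM per kb) overlapped those of Myom1 (34.4 and 50.5), and these overlapped those of Mybpc1 (21.6 and 39.5), although the order was the same within each library and Myom3 and Mybpc1 did not overlap. PMs at day 3 held 745 ± 30.9 CPM per kb of Mybph and 709 ± 16.9 of Mybpc1, which differed by less than 2 SD, then 409 ± 53.3 of Myom2, 139.9 ± 0.638 of Myom1, 136 ± 8.59 of Myom3 and 46.3 ± 2.15 of Mybpc2. Myom1 and Myom3 did not differ beyond their spread there. Mybpc1 was 2.53% of the summed level in the former and 32.5% in the latter, and Mybph 72.9% and 34.1%. The length of Myom2 in the deposited table is 5289 bases against 8853 exonic bases in the GENCODE vM1 annotation, and with the latter its day 3 level was 117 CPM per kb in C2C12 cells and 244 in PMs, which left its place in both orders as it was.

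**Figure D2:**
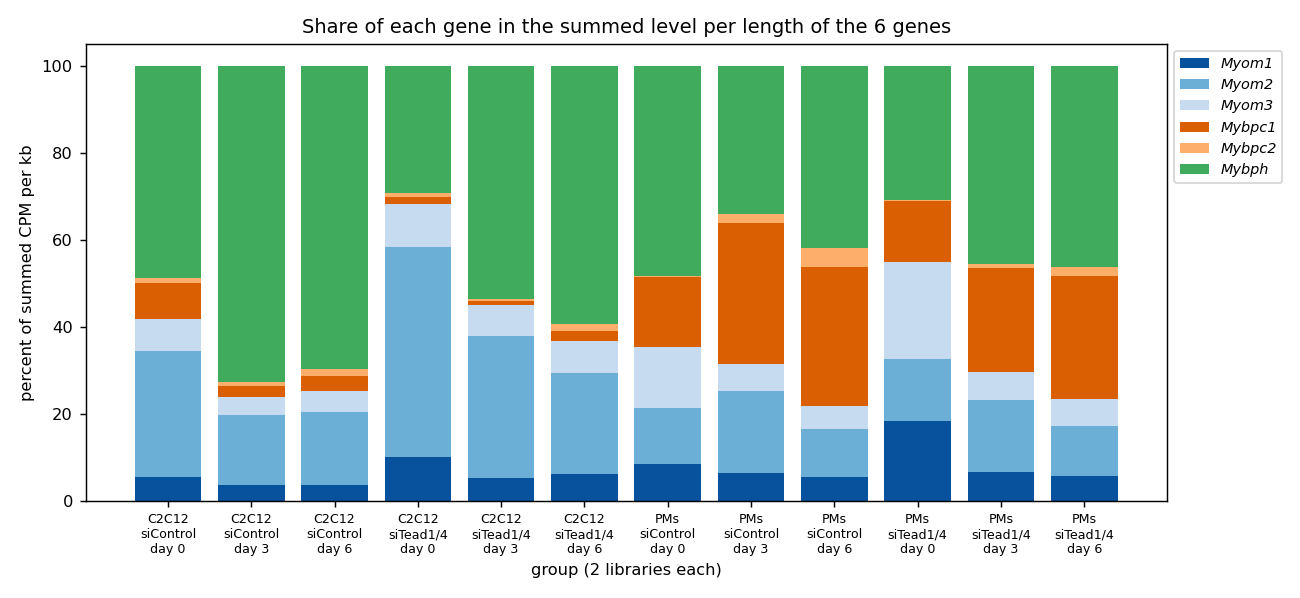
Percent of the summed CPM per kb of the 6 genes (vertical axis) that each gene made up in the 12 groups (horizontal axis), from means of 2 libraries and the gene lengths of the deposited table. Mybpc1 takes 32.5% in siControl PMs and 2.53% in siControl C2C12 cells at day 3, and Mybph takes 72.9% in the latter.

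The ratio of the slow to the fast form of myosin-binding protein C also differed between the cell types. Within siControl C2C12 libraries, Mybpc1 over Mybpc2 per length was 2.87 and 3.92 at day 3 and 3.07 and 1.88 at day 6. In siControl PMs it was 129 and 131 before differentiation, 15.6 and 15.1 on day 3, and 5.79 and 10.9 on day 6. The PM libraries at day 3 thus lay above all 4 differentiated C2C12 libraries, and the PM ratio was lower at each later day. With siTead1/4 the PM ratio was 37.4 and 73.2 before differentiation, 24.1 and 28.9 on day 3, and 10.3 and 19.7 on day 6, so the 2 siRNA groups did not overlap at days 0 and 3, with the silenced cells lower at day 0 and higher at day 3.

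Silencing of Tead1 and Tead4 was compared with siControl at each day. In PMs at day 0, Mybph and Mybpc1 fell, 2 of 6 genes beside 1.1% of all tested genes called lower. Mybph was at 256 and 268 CPM in siControl and at 85.0 and 87.2 CPM in siTead1/4 cells, a log2 fold change of -1.61 ± 0.11 (adjusted p = 0.000181, edgeR) or 32.9% of siControl. The replicates agreed closely and the groups stood far apart. Mybpc1 was at 214 and 205 CPM against 108 and 80.1 CPM, a log2 fold change of -1.16 ± 0.14 (adjusted p = 0.00163, edgeR). Without replicate 2 of the siTead1/4 cells it was -0.96 and not called, and in the fit of all 24 libraries its adjusted p was 0.309. In such bulk samples, fewer cells that express a gene and less RNA of it per cell cannot be told apart.

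The other 4 genes were not called in PMs at day 0. Myom2 was at 230.2 and 174 CPM in siControl and 138 and 96.7 CPM in siTead1/4 cells, without overlap, with a log2 fold change of -0.80 ± 0.19 (adjusted p = 0.0342, edgeR) that did not pass the fold threshold. The values were -0.30 ± 0.15 for Myom3, 0.14 ± 0.17 for Myom1 and 0.26 ± 0.58 for Mybpc2. Myogenic markers summed to between 3996 and 4090.0 CPM in silenced and between 4170.3 and 4199 CPM in siControl PMs at day 0, and proliferation markers to between 1156 and 1168 CPM and between 1548 and 1645 CPM. None of these 12 markers was called. Of the 6 endothelial markers 1 was called higher, and they summed to between 5.27 and 16.2 CPM in silenced and between 3.10 and 10.5 CPM in siControl PMs. No fibroblast, macrophage or Schwann cell marker was called, and the part of the markers in the result was not tested.

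At day 3 Mybph was not called in PMs, and the siTead1/4 libraries (1514 and 1627 CPM) lay above the siControl libraries (1401 and 1321 CPM). The log2 fold change was 0.20 ± 0.10 (adjusted p = 0.297, edgeR). At day 6 the groups overlapped, at 1657 and 1637 CPM against 1561 and 1790.2 CPM (-0.02 ± 0.10). The change of the silencing effect from day 0 to day 3, a comparison added after the values were seen, was 1.81 ± 0.15 for Mybph (adjusted p = 0.00146, edgeR), and Mybph was the only 1 of the 6 genes called, beside 0.328% of all tested genes. It lay between 1.75 and 1.86 and was called whichever 1 of the 8 libraries was left out, but in the fit of all 24 libraries, which takes the spread of C2C12 cells into account, its adjusted p was 0.317.

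Seen from the silenced cells, the rise of Mybph during PM differentiation was steeper. From day 0 to day 3 it was 17.6-fold in siTead1/4 PMs (4.13 ± 0.12 on the log2 scale) against 5.00-fold in siControl PMs. The same change of the silencing effect was 0.50 ± 0.19 for Mybpc1 (adjusted p = 0.293), 0.40 ± 0.27 for Myom2, 0.12 ± 0.21 for Myom3, -0.34 ± 0.23 for Myom1 and -1.71 ± 0.70 for Mybpc2 (adjusted p = 0.324). In C2C12 cells it was called for 0 of the 6 genes by edgeR (0% of all tested genes) and by DESeq2 (1.32%). By edgeR 0 of the 6 had an unadjusted p under 0.05.

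**Figure D3:**
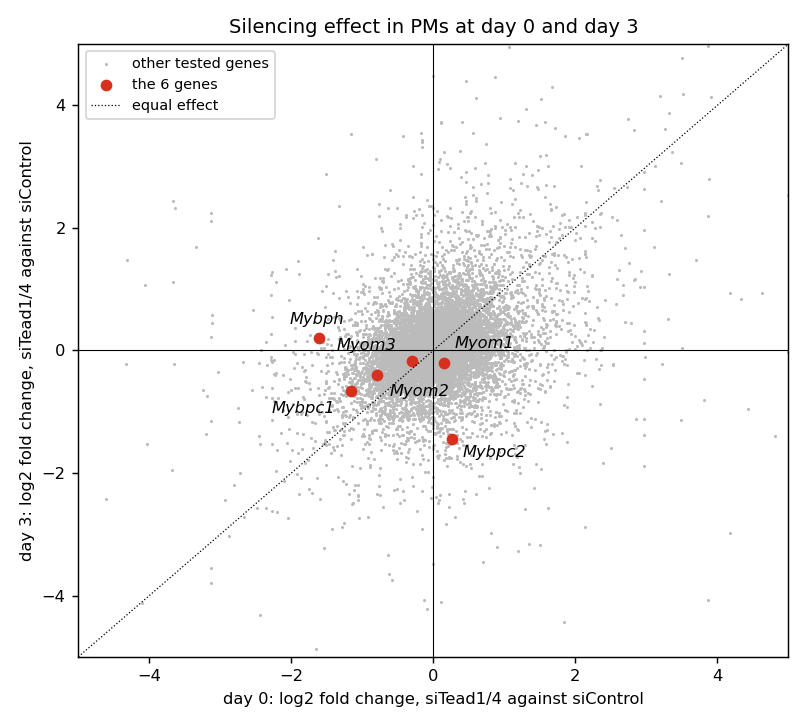
Log2 fold change of siTead1/4 against siControl in PMs at day 0 (horizontal axis) and at day 3 (vertical axis), with 1 grey point per tested gene, the 6 genes in red and a dotted line where both effects are equal. Mybph lies at -1.61 and 0.20 and Mybpc2 at 0.26 and -1.45, on either side of the dotted line, and 16 genes beyond 5 on either axis are not drawn.

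No gene of the 6 was called lower in PMs at day 3 (1.2% of all genes) or at day 6 (0.279%) by edgeR. DESeq2 also called none lower (0.91% and 0.353% of all genes). On each day 2 of 6 had an unadjusted p under 0.05, Mybpc1 and Mybpc2. Of all 16144 tested genes, 1854 at day 3 and 908 at day 6 had such a p and were lower, and 1814 and 1006 were higher. Mybpc1 was at 1917 and 1994 CPM in silenced cells at day 3 against 3032 and 3136 CPM, a log2 fold change of -0.67 ± 0.14 (adjusted p = 0.017, edgeR) that did not pass the fold threshold. At day 6 it was at 2465 and 2322 CPM against 3196 and 2898 CPM (-0.35 ± 0.14, adjusted p = 0.337). The groups did not overlap on any of the 3 days, and the silenced cells held 45.0%, 63.4% and 78.6% of the siControl level in turn.

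For Mybpc2 the lower values in silenced PMs were those of the later days. In PMs at day 0 the siTead1/4 libraries held 2.40 and 0.909 CPM, on either side of the siControl libraries. At day 3 they held 66.2 and 57.3 CPM against 162 and 173 CPM, a log2 fold change of -1.45 ± 0.40 (adjusted p = 0.0556, edgeR), and at day 6 199 and 97.9 CPM against 458 and 221 CPM (-1.19 ± 0.40, adjusted p = 0.225). The day 3 value was just above the threshold and was called when only the 4 libraries of that comparison were fitted (adjusted p = 0.00556). It was also called without the filter on low counts and with the replicate block, both described below. It was not called by DESeq2 (adjusted p = 0.0581), nor by edgeR with RLE size factors (adjusted p = 0.0572) or in the fit of all 24 libraries (adjusted p = 0.42). At day 6 the summed fibroblast markers were 77.9 and 74.5 CPM in silenced and 165 and 106 CPM in siControl PMs, and 2 of the 6 were called lower. At day 3 no marker of any of the lists was called in PMs, and the part of the markers in these results was not tested. The myomesins had smaller fitted changes on these days. Their log2 fold changes at day 3 were -0.39 ± 0.19 for Myom2 (1807 and 1498 CPM), -0.20 ± 0.17 for Myom1 (773 and 612 CPM) and -0.18 ± 0.15 for Myom3 (717 and 628 CPM), and at day 6 they were -0.09 ± 0.19, -0.12 ± 0.17 and 0.06 ± 0.15.

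In C2C12 cells all 6 genes were lower on average in siTead1/4 than in siControl cells on all 3 days, but edgeR called 0 of 6 on each day. The shares of all tested genes called lower were 0.301%, 1.08% and 0.0327% in turn. An unadjusted p under 0.05 was seen for 2, 4 and 2 of the 6 genes. Of all 15303 tested genes, 838, 1207 and 684 had such a p and were lower, and 765, 973 and 380 were higher. DESeq2 called 1, 2 and 0 of the 6 lower, beside 0.596%, 1.61% and 0.428% of all genes. The median log2 fold change of the 6 was -1.04, -1.48 and -0.90, against 0.02, 0.01 and 0.01 over all tested genes. The day 0 median includes Mybpc2, whose counts there were too few for a fold change. At day 0 the values of Myom1, Myom2 and Mybpc2 turned sign in some fits that left out 1 library.

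The 2 genes that stood out in PMs at day 0 also had the lowest adjusted p-values in C2C12 cells at day 3. Mybpc1 was at 14.1 and 15.6 CPM in siTead1/4 cells at day 3 against 93.9 and 172 CPM in siControl cells, which is 11.2% of the siControl mean and a log2 fold change of -3.19 ± 0.71 (adjusted p = 0.0649, edgeR). Mybph was at 284 and 489 CPM against 1654 and 1558 CPM, 24.1% of the mean and a log2 fold change of -2.09 ± 0.48 (adjusted p = 0.0721). Neither pair of groups overlapped. DESeq2 called both (adjusted p = 0.0235 and 0.000628), as did edgeR in the fit of all 24 libraries (adjusted p = 0.0031 and 0.00412). That fit takes the smaller spread of PMs into account. EdgeR also called both without the filter on low counts. It called neither with RLE size factors, with the replicate block or with only the 4 libraries of the comparison (adjusted p between 0.0518 and 0.0845).

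At day 6 Mybpc1 was at 53.7 and 73.3 CPM in silenced against 160.0 and 254 CPM in siControl C2C12 cells (-1.70 ± 0.67, adjusted p = 0.622), and Mybph at 449 and 900.1 CPM against 1599 and 1826 CPM (-1.34 ± 0.47, adjusted p = 0.54). At day 0 Mybph was at 1.08 and 0.695 CPM against 4.53 and 1.53 CPM (-1.73 ± 0.56, adjusted p = 0.271), and Mybpc1 had 6 and 3 counts against 79 and 9 (-3.10 ± 1.12, adjusted p = 0.334). The siControl replicates of Mybpc1 themselves stood far apart at day 0, and leaving out 1 library gave values between -4.10 and -0.32, and between -2.33 and -0.76 for Mybph. For Mybpc2 the counts at day 0 were 1 and 2 against 9 and 2, too few for a fold change.

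For Mybpc2 the silenced C2C12 replicates stood far apart, with 3.65 and 14.2 CPM at day 3 and 7.90 and 62.0 CPM at day 6. The log2 fold changes were -1.87 ± 0.89 (adjusted p = 0.385) and -1.14 ± 0.86 (adjusted p = 0.897, edgeR). Myom1 was at 105 and 126 CPM at day 3 (-1.08 ± 0.40, adjusted p = 0.236), Myom3 at 118 and 198 CPM (-0.86 ± 0.39, adjusted p = 0.348) and Myom2 at 429 and 933 CPM (-0.63 ± 0.43, adjusted p = 0.581). At day 6 these 3 were at 151 and 269 CPM, 169.6 and 339.8 CPM, and 565 and 962 CPM, with log2 fold changes of -0.35 ± 0.39, -0.47 ± 0.38 and -0.65 ± 0.43. At day 0 the values were -0.12 ± 0.50, -0.61 ± 0.48 and -0.29 ± 0.45.

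Replicate 1 of the silenced C2C12 cells was below replicate 2 for all 6 genes at days 3 and 6. The summed myogenic markers differed in the same direction, with 2542 and 3921 CPM at day 3 and 3408 and 5486 CPM at day 6 in silenced cells, against 5391 and 5461 CPM and 6260.2 and 6981 CPM in siControl cells. The summed fibroblast markers were 112 and 47.7 CPM in silenced and 239 and 127 CPM in siControl cells at day 3. None of these 12 markers was called at either day. Proliferation markers summed to 162 and 111 CPM in silenced and 182 and 195 CPM in siControl cells at day 3. At day 6 they summed to 112 and 646 CPM against 88.3 and 389 CPM, higher in replicate 2 of both groups. No proliferation marker was called at either day. Of the macrophage markers 1 of 6 was called lower at day 3, where they summed to between 1.11 and 1.32 CPM in silenced and between 2.13 and 2.29 CPM in siControl cells, and the part of the markers in the results was not tested. Leaving out 1 library at a time, the day 3 log2 fold change of Mybpc1 lay between -3.57 and -2.68 and that of Mybph between -2.51 and -1.73, with no call.

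**Figure D4:**
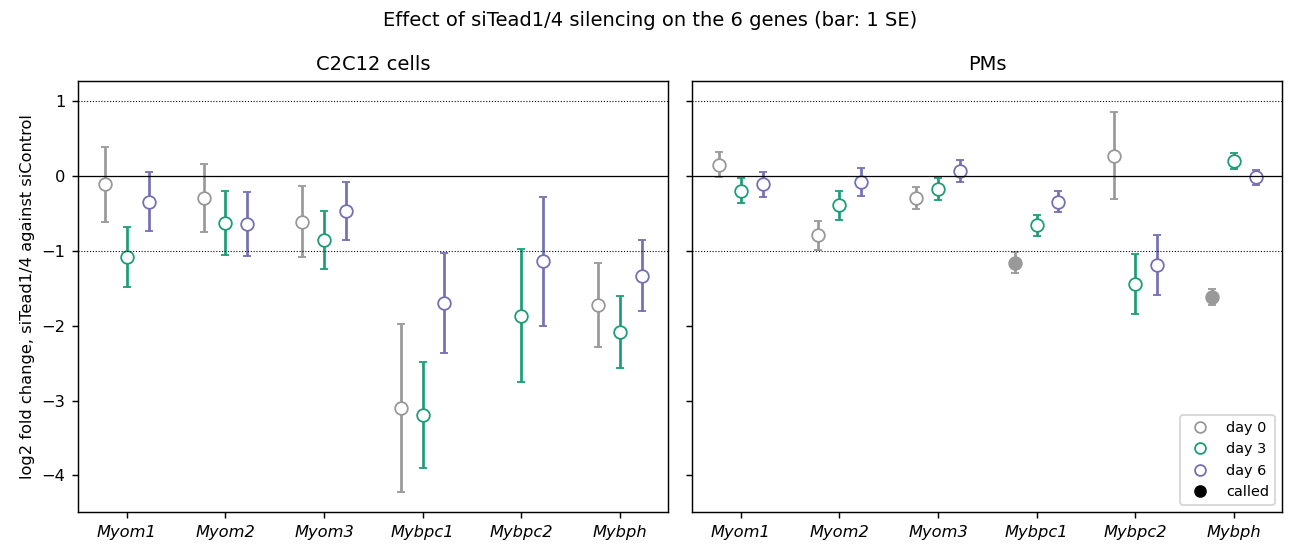
Log2 fold change of siTead1/4 against siControl (vertical axis) for each gene at days 0, 3 and 6 in C2C12 cells and PMs, with bars of 1 SE, filled points for called genes and dotted lines at the fold threshold. Mybph and Mybpc1 at day 0 in PMs (-1.61 and -1.16) are the filled points, and Mybpc2 in C2C12 cells at day 0 is left out for its few counts.

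The genes still rose in the silenced cells. From day 0 to day 3 of siTead1/4 cells, 6 of 6 genes were called higher in C2C12 cells (13.8% of all genes) and 6 of 6 in PMs (15.9%). In silenced C2C12 cells the log2 fold changes were 8.67 ± 0.67 for Mybph, 7.37 ± 0.53 for Myom3, 7.27 ± 0.57 for Myom2, 6.86 ± 0.53 for Myom1 and 6.76 ± 1.02 for Mybpc1. The counts of Mybpc2 went from 3 to 750 in sum, a ratio of 216 with an exact 95% interval of 73.6 to 1049 for counting error alone. In silenced PMs they were 5.20 ± 0.51 for Mybpc2, 4.32 ± 0.16 for Mybpc1, 4.13 ± 0.12 for Mybph, 3.76 ± 0.21 for Myom2, 2.09 ± 0.17 for Myom1 and 1.78 ± 0.15 for Myom3. The change of the silencing effect from day 3 to day 6 was called for 0 of the 6 in either cell type by edgeR and by DESeq2. By edgeR 0 of 6 had an unadjusted p under 0.05 and 0% of all tested genes were called. DESeq2 called 0.032% of all genes in C2C12 cells and 0.0969% in PMs.

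Whether silencing acted on the genes by different amounts in PMs and C2C12 cells was tested with an interaction term in the fit of all 24 libraries. At day 3 it was called for 1 of the 6 genes, Mybph, beside 1.25% of all tested genes. Its effect in PMs exceeded that in C2C12 cells by 2.26 ± 0.51 on the log2 scale (adjusted p = 0.0375, edgeR), from 0.20 in PMs and -2.09 in C2C12 cells. When 1 of the 8 libraries was left out, the value lay between 1.91 and 2.72 and was called in 1 of the 8 fits. The difference of Mybpc1 was 2.50 ± 0.71 (adjusted p = 0.103). At days 0 and 6 edgeR called 0 of the 6 (0.00591% and 0.0354% of all genes), as did DESeq2 (0.118% and 0.218%). An unadjusted p under 0.05 was seen for 0 and 1 of the 6. Of all 16926 tested genes, 396 and 604 had such a p with a higher effect in PMs, and 329 and 312 with a lower one.

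Of 25 other genes of the thick filament and the M-band, 24 were tested in C2C12 cells and 23 in PMs. In siControl C2C12 cells 23 were called higher at day 3 and 23 at day 6 than at day 0, and in PMs 19 and 20, with none lower. With siTead1/4, edgeR called 0, 4 and 1 of them lower in C2C12 cells at days 0, 3 and 6 and 2, 5 and 3 in PMs, and 1 higher on each day in PMs. The shares of all tested genes called lower are given above, and those called higher in silenced PMs were 1.5%, 2.1% and 0.465% on the 3 days. The 3 largest changes at day 3 in C2C12 cells were in Myl2, the slow regulatory light chain (-6.75 ± 0.69), Myh8, the perinatal heavy chain (-4.89 ± 1.01), and Myh7, the slow heavy chain (-4.04 ± 0.51). In PMs they were in Myh7 (-3.03 ± 0.45), Myh1, a fast heavy chain (-2.33 ± 0.21), and Myl2 (-2.12 ± 0.37). Their adjusted p-values were 0.0093, 0.0495, 0.0135, 0.00356, 0.00053 and 0.00805 in this order (edgeR), and these changes were larger than that of any of the 6 genes on that day in the same cell type. Myl2 was low, at 0.0794 and 0.232 CPM in silenced against 18.0 and 16.2 CPM in siControl C2C12 cells. In PMs it was at 0.494 and 0.648 CPM against 2.41 and 2.53 CPM. The median log2 fold change of the list at day 3 was -1.36 in C2C12 cells and -0.31 in PMs, close to those of the 6 genes (-1.48 and -0.30).

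The genes whose levels over the 12 group means (log2 CPM) followed each of the 6 most closely were also described. The nearest by Pearson r were Tnnt3, Neb and Ttn for Myom1 (r between 0.998 and 0.999), Cacnb1, Bin1 and Tnni2 for Myom2 (0.992 to 0.993), Unc45b, Cap2 and Acta1 for Myom3 (0.996 each), Casq1, Reep1 and Mir133b for Mybpc1 (0.991 to 0.993), Adssl1, Lysmd4 and Araf for Mybpc2 (0.990 to 0.996), and Myl4, Trim63 and Cacna1s for Mybph (0.991 to 0.994). Among the 6 genes the closest pair was Myom1 with Myom3 (0.997) and the most distant Myom3 with Mybpc2 (0.879). All groups of a cell type share the step from day 0 to day 3, and at day 0 the C2C12 libraries lie below the PM libraries for the 6 genes. The part of each in these values was not tested.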

How the data were processed

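RNA-seq libraries were made from polyadenylated RNA of 24 samples, 12 per cell type, without strand information. The authors mapped the reads to mm9 and deposited 1 table with raw counts per gene and library. The submitters' processing notes name CASAVA 1.8.2, TopHat2 2.0.10, Bowtie2 2.1.0, HTSeq 0.6.1 and DESeq2 1.8.1. The deposited raw counts of the listed libraries were used. The normalized columns, and 36 columns of 12 further libraries absent from the sample list, were not used.

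Counts were tested in R 4.3.3 with edgeR 4.0.16 (filterByExpr, TMM, glmQLFit and glmQLFTest), each cell type on its own with 1 mean per group, and differences between cell types in 1 fit of 24 libraries. Adjustment over all tested genes followed Benjamini and Hochberg, and a call needed an adjusted p below 0.05 together with a log2 fold change above 1 or below -1. The SE is the log2 fold change divided by the root of the F value. With 2 replicates a group, each gene's spread rests partly on the other genes. Replicates of a group differed by more than the sampling noise (chi-square over its degrees of freedom between 18.4 and 327), so none were merged for the tests. The count ratios of Mybpc2 in C2C12 cells use counts summed over replicates, and their intervals leave out this spread. The siRNA, day and replicate number came from the sample titles, and the cell type from the source names of the samples. The fits were tested on simulated data.

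Levels per length use the gene length of the deposited table. Genes other than the 6 were named by rule: the siRNA targets, the 3 largest called changes of the thick filament list at day 3 in each cell type, and the 3 genes closest to each of the 6 by Pearson r. The correlations used log2 CPM with a prior count of 2. Tead1 has more than 1 identifier in the table, and the one with the higher count was used. The genes and lists were chosen with earlier results of these data known. Alternatives were DESeq2 1.42.0, RLE size factors, no filter, other sets of libraries, a replicate block and leaving out each library.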

Additional observations from a re-analysis of the deposited data

Results flagged for a closer look

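The effect of siTead1/4 silencing on Mybph differed between groups in a pair of tests. In PMs it differed between day 3 and day 0 by 1.81 on the log2 scale, from -1.61 at day 0 to 0.20 at day 3. This was called whichever 1 of the 8 libraries was left out, and not in the fit of all 24 libraries (adjusted p = 0.317, edgeR).

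At day 3 the effect on Mybph differed between PMs and C2C12 cells by 2.26 on the log2 scale (adjusted p = 0.0375, edgeR). It was called in 1 of the 8 fits that left out a library, that without replicate 2 of siTead1/4 C2C12 cells at day 3. The remaining level of Tead1 mRNA at day 3 was 47.9% of siControl in C2C12 cells and 31.3% in PMs, and that of Tead4 30.1% and 16.8%. The part of these levels in the difference was not tested. The day 3 siControl levels of Mybph in both cell types, between 1321 and 1654 CPM, were set on a common scale.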

How the results depend on the processing

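Without a filter on low counts, edgeR called 2, 4 and 3 of the 6 genes lower in silenced C2C12 cells (days 0, 3, 6). The shares of all genes were then 1.04%, 2.35% and 0.976%. In PMs edgeR called 1 each at days 3 and 6, beside 1.26% and 0.55% of all genes. It called 1 of the 6 between days 3 and 6 of siControl C2C12 cells (0.408% of all genes). It called 2 and 1 higher at day 6 than at day 3 in silenced C2C12 cells and PMs (1.56% and 2.05%). For the change of the silencing effect from day 3 to day 6 in C2C12 cells it called 1 (0.632%). For the difference between the cell types it called 2 at day 3 (3.14%) and 1 at day 6 (0.538%). For the change of the effect from day 0 to day 3 in PMs it called 2 (1.45%). Without the filter the prior degrees of freedom, the weight of other genes in a gene's spread, became infinite in the C2C12 fit (4.25 with the filter), 34.3 in the PM fit (4.36) and 82.8 in the fit of all 24 libraries (4.5). DESeq2 called 1 and 2 of the 6 lower in silenced C2C12 cells at days 0 and 3 (0.596% and 1.61% of all genes). The fit of all 24 libraries called 2 in C2C12 cells at day 3 (2.56%) and 1 in PMs at day 0 (0.609%). It called 0 for the change from day 0 to day 3 in PMs (0.0414%). With only the 4 libraries of the comparison, 1 gene (Mybpc2) was called lower in PMs at day 3 (1.12%). The cause of these shifts was not tested further.

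The share of all genes called lower after silencing at day 3 was 1.08% in C2C12 cells, but 2.35% without the filter, 2.56% with all 24 libraries and 0.0488% with only 4. In PMs it was 1.2% at day 3, but 1.88% with the replicate block and 0.632% with all 24 libraries. At day 0 it was 0.301% in C2C12 cells, but 0.596% by DESeq2, 1.04% without the filter, 0.78% with all 24 libraries and 0% with only 4, and 1.1% in PMs, but 0.609% with all 24. At day 6 it lay between 0% and 0.976% in C2C12 cells (0.0327% as reported) and between 0% and 0.743% in PMs (0.279%).

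The titles give both siRNA groups the same replicate numbers, but no source says that a number marks a shared culture or day. Over genes, the deviations of same-numbered libraries of a day correlated between -0.13 and 0.47 in C2C12 cells and between 0.38 and 0.50 in PMs. With the replicate block, Mybpc2 was called lower in PMs at day 3 (adjusted p = 0.00412, edgeR) and at day 6 (adjusted p = 0.0293), 1 gene each, and 1 gene was called higher at day 6 than at day 3 in silenced PMs. For the other comparisons it left the number of the 6 genes called within 1.5 times, with Myom3 added to those higher in PMs at day 6. The share of all genes called, in the same direction as counted for the 6 genes, rose with the block from 0.0327% to 0.0588% (silenced C2C12 cells, day 6), from 0.279% to 0.743% (silenced PMs, day 6), from 2.8% to 4.53% (days 3 to 6 of siControl PMs), and from 1.84% to 3.4% (days 3 to 6 of silenced PMs). For the change of the effect it rose from 0.328% to 1.78% in PMs (days 0 to 3), from 0% to 0.0186% in PMs (days 3 to 6) and from 0% to 0.0327% in C2C12 cells (days 0 to 3). For the difference between the cell types it was 0.0295%, 1.93% and 0.201% at days 0, 3 and 6, against 0.00591%, 1.25% and 0.0354%.

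When 1 library was left out, the number called ranged from 1 to 3 for silenced PMs at day 0 and from 0 to 1 for the difference between the cell types at day 3. For siControl PMs over C2C12 cells it ranged from 3 to 4 at day 3 and from 1 to 3 at day 6. Some uncalled log2 fold changes then turned sign. For silencing in C2C12 cells they ranged from -0.67 to 0.60 (Myom1, day 0), from -0.69 to 0.23 (Myom2, day 0) and from -0.83 to 0.019 (Myom1, day 6). In PMs they ranged from -0.10 to 0.35 (Myom1, day 0), from -0.57 to 0.83 (Mybpc2, day 0), from -0.24 to 0.017 (Myom1, day 6), from -0.16 to 0.32 (Myom3, day 6) and from -0.12 to 0.082 (Mybph, day 6). For siControl PMs against C2C12 cells at day 6 they ranged from -0.14 to 0.29 (Myom2) and from -0.15 to 0.055 (Mybph).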
